A study of Mus musculus with 8 samples.

Results

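The 10 genes described here lie close together at the start of mouse chromosome 14 and carry mostly predicted-gene numbers: Gm2897, Gm5795, Gm10413, Gm10409, Gm10408, Gm3002, Gm5796, 2610042L04Rik, Gm3264 and Gm3500. They were picked by symbol out of the 14853 genes in the authors' deposited table, all within the first 10 Mb of the chromosome in GRCm38, and all 10 had a row. The choice was made with their low fold changes and small adjusted p-values in this comparison known, so these values describe the genes and support nothing further. In the authors' deposited table the transcripts of all 10 were lower in the flox samples, by 2.16-fold to 3.69-fold.

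The samples were undifferentiated spermatogonia, the premeiotic testis cells among which the germline stem cells are found, from C57BL/6 mice aged 8 to 12 weeks. Both groups carried 1 Tert allele with CreER, a Cre recombinase that tamoxifen activates, and a tdTomato reporter that Cre switches on (Rosa lsl-Tdtomato/+). The other Tert allele was loxP-flanked in 4 samples (CreER/flox, titled TERT-del) and normal in 4 samples (CreER/+, titled TERT-hetero). All mice received tamoxifen, and cells with high MCAM, no KIT and tdTomato were sorted on day 7, so the CreER/+ samples are tamoxifen-treated heterozygotes and not wild type. The labels do not say whether a sample holds 1 mouse or several. Total RNA was sequenced, and the values per library were not used here. Each gene is therefore given by a mean normalized count over all libraries, a log2 fold change of flox over CreER/+ and its standard error (SE). The sign follows the name of the table, which sets flox against WT. In the authors' deposited table Tert itself, the targeted gene, was not called (0.29, SE 0.26, adjusted p 0.595). Its deleted part is unknown here, so Tert does not check that sign.

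As background, RefSeq gives takusan and Tksn as other names of 2610042L04Rik. Takusan genes form a large rodent family of near-identical copies, some of them read as pseudogenes, that arose by repeated duplication. Their proteins are small, and alpha-takusan is known from neurons as a partner of the synaptic scaffold PSD-95. A role in spermatogonia is not known from the labels. RefSeq annotates 8 of the genes as protein-coding and 2, Gm10409 and Gm3002, as transcribed pseudogenes, whereas GENCODE M21 lists all 10 as protein-coding.

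The likeness of the copies sets what can be measured, so a coding stretch of 90 bases that all 10 transcripts hold in a single exon is shown first. It was read from the GENCODE M21 transcripts, 5′ to 3′, and capitals mark bases that differ from Gm3002.
Gm3002: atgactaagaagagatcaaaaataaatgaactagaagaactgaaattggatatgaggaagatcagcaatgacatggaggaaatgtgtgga
Gm5795: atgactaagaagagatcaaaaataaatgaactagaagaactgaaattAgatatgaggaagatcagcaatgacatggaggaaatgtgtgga
Gm2897: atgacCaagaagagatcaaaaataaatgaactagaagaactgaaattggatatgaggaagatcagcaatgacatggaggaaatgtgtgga
Gm5796: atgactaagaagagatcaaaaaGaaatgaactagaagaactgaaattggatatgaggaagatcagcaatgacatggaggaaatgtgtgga
2610042L04Rik: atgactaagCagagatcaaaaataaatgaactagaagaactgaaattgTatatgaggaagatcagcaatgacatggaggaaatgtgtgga
Gm10408: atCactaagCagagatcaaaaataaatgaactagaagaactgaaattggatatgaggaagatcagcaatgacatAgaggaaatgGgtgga
These are the 6 distinct versions. Gm10409, Gm3264 and Gm3500 are identical to Gm3002 over the stretch, and Gm10413 is identical to Gm5795. Gm10408 differs most, at 4 bases, 2610042L04Rik at 2, and Gm2897, Gm5795 and Gm5796 at 1 each. In Gm3002 the stretch lies on the plus strand at chr14:3825596-3825685 in GRCm38, and in Gm10408 at chr14:3450185-3450274.

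Beyond this stretch the genes were also alike where their transcripts aligned. Across the 45 pairs, the aligned parts of the longest GENCODE M21 transcripts were 92.6% to 99.5% identical, with a median of 94.8%. The aligned part covered 29.9% to 100% of the transcript, with a median of 82.9% over both genes of each pair, and it was under 50% in 24 of the 90 cases, so the identities do not hold for whole transcripts. Over the aligned parts, Gm5795 and Gm10413 formed the closest pair, followed by Gm10409 and Gm3002 at 99.4%. Gm3500 and Gm5796 shared 98.6%, and the least alike pair was Gm10413 with 2610042L04Rik. To see how far a read could tell the copies apart, each transcript was divided into all its stretches of 50 bases. Exact copies of these were looked for in transcripts of genes elsewhere in the genome. For Gm10413 and Gm10409, 100% of the stretches occurred in at least 1 other gene, so no stretch of that length belongs to them alone. The share was 99.0% for Gm3500 and 97.2% for Gm3002, and the lowest was 72.3% for 2610042L04Rik. At 100 bases the shares ran from 45.9% for 2610042L04Rik to 100%. Each of the 10 genes shared stretches of 50 bases with 102 to 115 other annotated genes. Neither the read length nor the handling of reads with several matches is stated in the labels. The 10 rows therefore cannot be taken as 10 independent measurements, and how many reads, if any, they share was not tested.

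**Figure D1:**
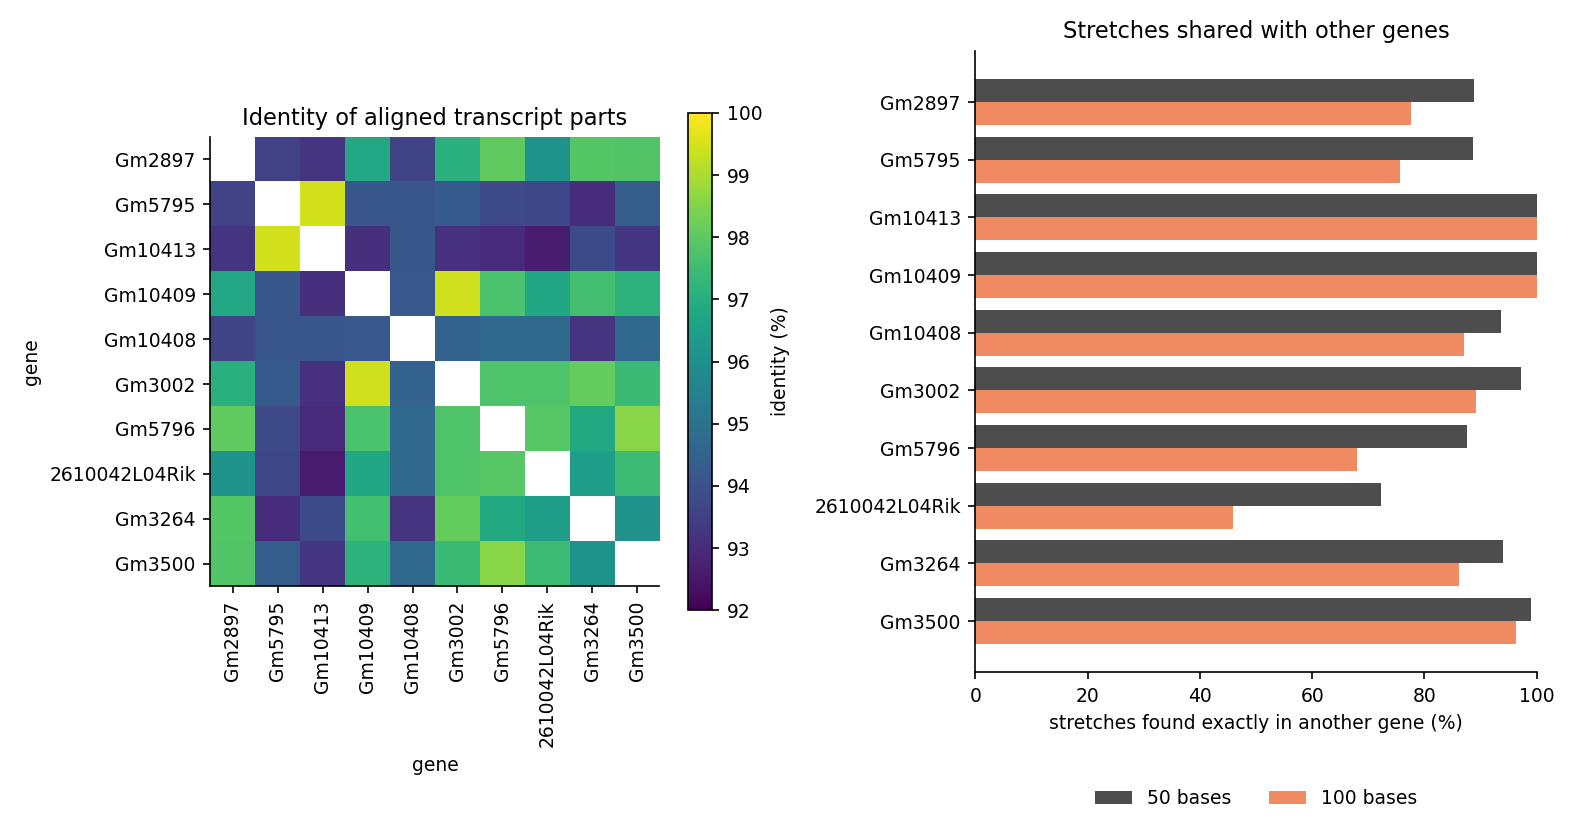
The left panel gives the identity in percent of the aligned parts of the longest transcripts for each pair of the 10 genes, from dark (92%) to light (100%), with the diagonal left blank. The right panel gives for each gene the percent of its 50-base and 100-base stretches found exactly in the transcript of another gene. 2610042L04Rik has the lowest shares, 72.3% and 45.9%, and Gm10413 and Gm10409 are at 100% for both lengths.

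Gm3002 (Entrez gene 100040852, chromosome 14, 3814913 to 3830683) had the lowest Wald statistic and the smallest p of the whole table. In the authors' deposited table it was 3.69-fold lower in the flox samples, with a deposited adjusted p of 2.81e-25 and a log2 value of -1.88 (SE 0.17). Its mean normalized count of 258 was the highest of the 10 genes. The 95% interval of its log2 fold change, computed from the deposited SE, ran from -2.21 to -1.56. Its fold change was lower than those of 99.9% of rows.

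Gm5795 (chromosome 14, 3188284 to 3196683) and Gm10413 (3395093 to 3403534), the pair most alike over the aligned parts of their transcripts, also had like values. The authors' deposited table gave Gm5795 a mean count of 217 and a log2 fold change of -1.43, with SE 0.19 and adjusted p 1.34e-09. For Gm10413 the authors' deposited table gave a mean count of 149 and a log2 fold change of -1.38, with SE 0.20 and adjusted p 2.90e-08. All stretches of Gm10413 also occur in other genes, and the part of shared reads in the likeness of these 2 rows was not tested. Gm10409 (3412614 to 3433857), the pseudogene closest to Gm3002, had a mean count of 210 and a log2 value of -1.25 (SE 0.24, adjusted p 0.000101) according to the authors' deposited table. Despite 99.4% identity of the aligned parts, its interval of -1.72 to -0.78 overlaps that of Gm3002 only between -1.72 and -1.56.

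The other 6 genes were less abundant. Gm5796 (chromosome 14, 4023941 to 4041368) had the next largest fall after Gm3002, at -1.69 (SE 0.31, adjusted p 3.58e-05, mean count 55.3) in the authors' deposited table. 2610042L04Rik (4333878 to 4354687), the gene with the most sequence of its own, was at -1.35 in the authors' deposited table, with SE 0.32 and adjusted p 0.00271. Its mean count of 43.2 was the lowest of the 10. It had 509 of 1837 stretches of 50 bases to itself, the largest number of the 10 genes, and its fold change lies next to their median. Gm3500 (5365792 to 5389718, the only 1 of the 10 on the minus strand) had -1.22 (SE 0.28, adjusted p 0.00221, mean count 121) by the authors' deposited table. Gm3264 (4854917 to 4876908) was at -1.54 (SE 0.44, adjusted p 0.0187, mean count 49.6) in the authors' deposited table. Closest to the threshold of 0.05 were Gm2897 (3049285 to 3076840) and Gm10408 (3449312 to 3459281). The authors' deposited table gave them log2 fold changes of -1.11 (SE 0.35, adjusted p 0.0359, mean count 74.2) and -1.27 (SE 0.41, adjusted p 0.0397, mean count 59.5).

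**Figure D2:**
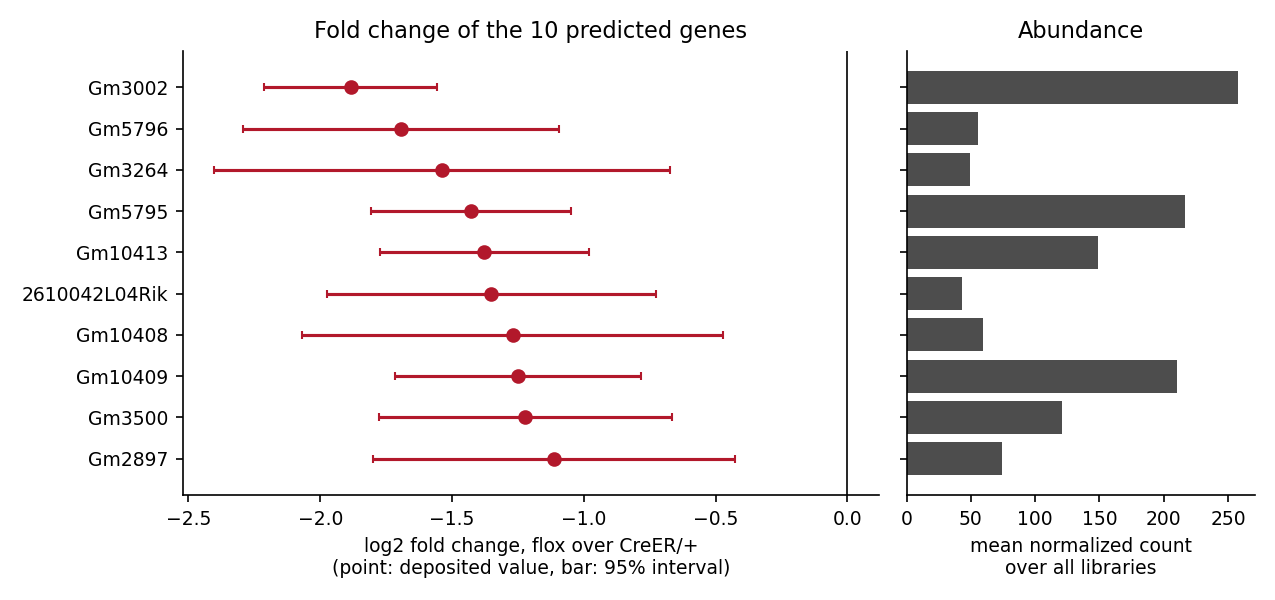
The left panel plots for each of the 10 genes the deposited log2 fold change of flox over CreER/+ (points) and its 95% interval (bars), ordered from Gm3002 at -1.88 to Gm2897 at -1.11, with no interval reaching 0. The right panel gives the mean normalized count over all libraries, from 43.2 for 2610042L04Rik to 258 for Gm3002.

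The median log2 fold change was -1.36 for the 10 genes and 0.00071 for all 14853 rows. All 10 were called lower at an adjusted p of 0.05, where 3.42% of all rows were called lower (508 genes), 1.94% higher and 5.36% in either direction. The genes were chosen for these values, and nothing is read from that count. The 95% intervals of all 10 have the range from -1.72 to -1.56 in common, and 9 of 10, all but that of Gm3002, include the median of the 10. Each interval assumes a normal statistic, and overlap of intervals is no test of a difference. The differences between genes were not tested because their covariance is not known. Their SEs were 0.97 to 1.51 times the median SE of the 200 rows nearest in mean count, and above it in 9 of 10. Per kilobase of the longest transcript, the mean count was highest in Gm10413 (151), Gm3002 (132), Gm5795 (123) and Gm10409 (109) and lowest in 2610042L04Rik (22.9). The transcripts are 882 to 1980 bases long, and how reads that match several copies were counted is not stated, so this scale gives no secure order of the levels.

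The calls rest on how the statistic is judged. The central statistics of the table were 1.45 times as wide as a standard normal distribution. With that width divided out, Gm3002, Gm5795 and Gm10413 were the 3 genes still called lower in the whole table (0.0202% of rows, against 0.0337% called in either direction), and the other 7 of the 10 were not called. That step keeps the order of the statistics, in which these 3 were already the lowest, so it adds no separate evidence for them. It takes the whole central width as error, which was not tested. With a t distribution of 6 degrees of freedom none of the 10 passed the Benjamini-Hochberg adjustment, nor did any other row, while all 10 had an unadjusted p under 0.05 by that distribution (1652 rows in all). The smallest unadjusted p of the 10 by that t distribution was 2.92e-05. The deposited p-values use a normal distribution, and whether 6 degrees of freedom suit these statistics was not tested.

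**Figure D3:**
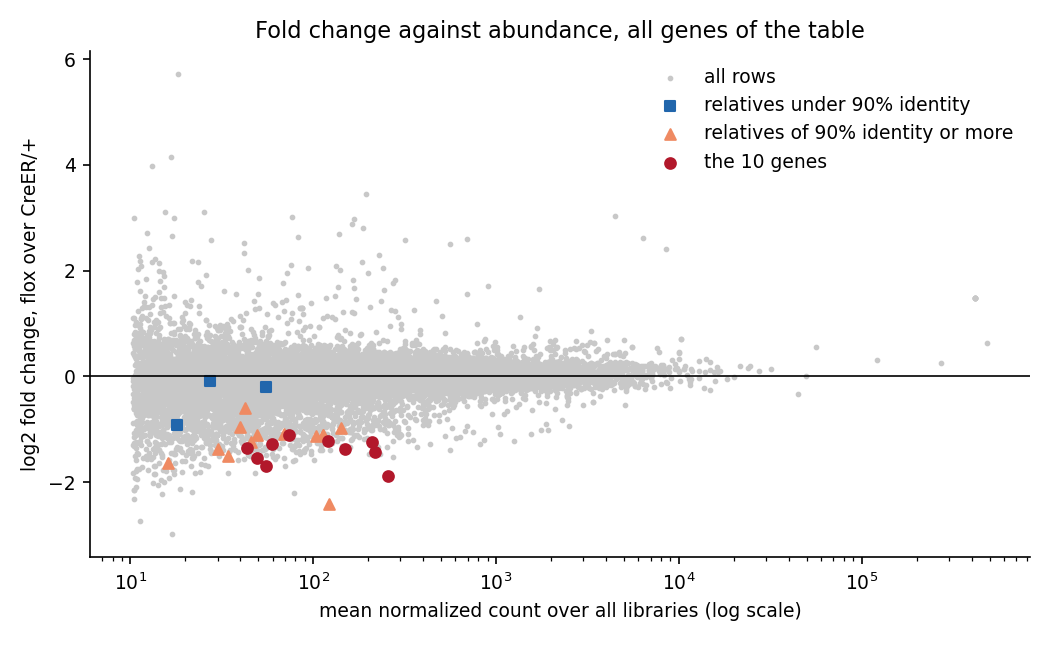
Each grey point is a row of the table, with the mean normalized count on a log scale against the log2 fold change of flox over CreER/+. The 10 genes (circles, -1.88 to -1.11) and their relatives of 90% identity or more (triangles, -2.42 to -0.61) all lie below 0. Of the 3 relatives under 90% identity (squares), 2 lie near 0.

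The neighbours show how far the pattern extends. Of 34 measured genes in the first 10 Mb of chromosome 14, 24 were not among the 10. Of these, 14 are predicted or RIKEN genes, and 10 are other genes. All 14 predicted or RIKEN genes were below 0 in the authors' deposited table, with a median log2 fold change of -1.12 and a range of -2.42 to -0.61. Of these 14 rows, 8 were called lower and 6 were not called, and 2 of them, Gm3317 and Gm3488, share all their values and so count as 1 measurement. The 10 other genes had a median of 0.26 and a range of -0.10 to 1.32, with 3 of the 10 below 0 and none called lower. Rpp14 and Htd2, which share their values, were called higher at 0.53 (SE 0.15, adjusted p 0.0149) by the authors' deposited table. Over the whole of chromosome 14, 502 rows outside the 10 genes and their relatives had a median of 0.013, and 2.79% were called lower. These rows include the 10 other genes of the window and its 2 predicted or RIKEN genes that are not relatives. This window was examined because the 10 genes had been noted there, so the counts are a description.

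**Figure D4:**
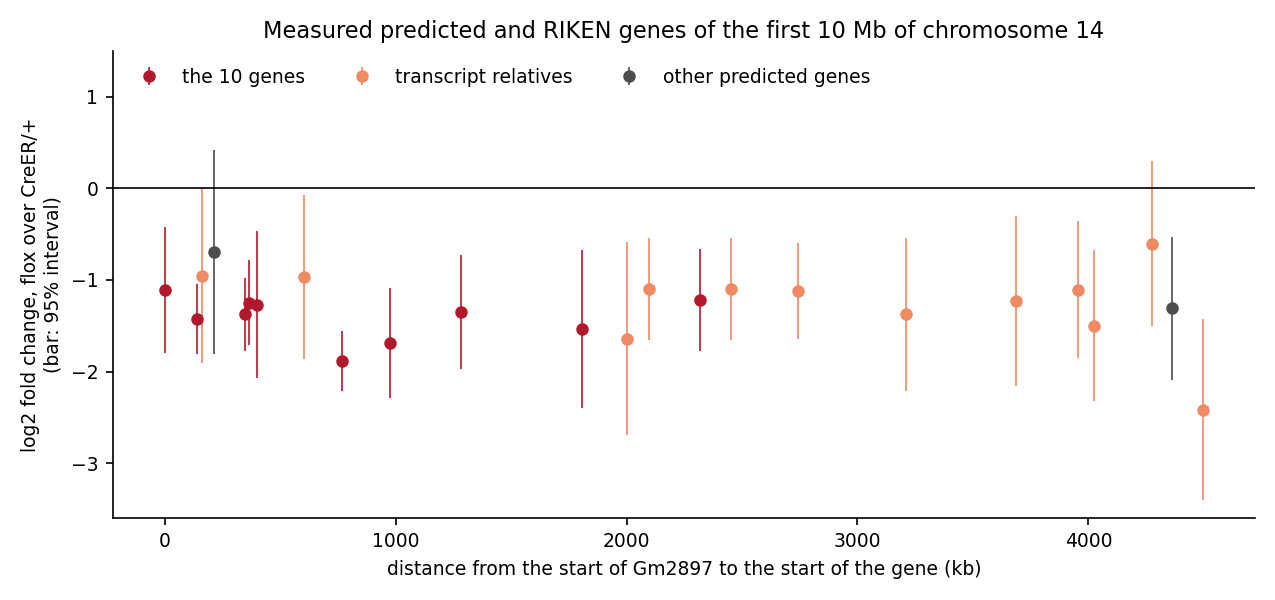
The log2 fold change of flox over CreER/+ (points, with 95% intervals) is plotted for the 24 measured predicted and RIKEN genes of the first 10 Mb of chromosome 14 against the distance in kb from the start of Gm2897. All 24 lie below 0, from -2.42 to -0.61.

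Among neighbours called lower outside the 10, Gm3558 (chromosome 14, 7545151 to 7568566) had the largest fall. Its mean count was 122, and it was 5.34-fold lower in the authors' deposited table (log2 value -2.42, SE 0.50, adjusted p 0.000530). Its SE was 2.52 times that of rows of like mean count. Gm3383 (-1.12, SE 0.27, adjusted p 0.00296), Gm3317 and Gm3488 (both -1.10, SE 0.28, adjusted p 0.00687) and Gm3696 (-1.50, SE 0.42, adjusted p 0.0149) followed in the authors' deposited table. The remaining neighbours called lower were 4933406F09Rik (-1.31, SE 0.40), Gm3411 (-1.38, SE 0.43) and 4930555G01Rik (-1.64, SE 0.54) in the authors' deposited table. Predicted or RIKEN genes not called were Gm10406 (-1.11, adjusted p 0.0604), Gm3636 (-1.23, adjusted p 0.103), Gm3020 (-0.97, adjusted p 0.206), D830030K20Rik (-0.95, adjusted p 0.254), Gm5797 (-0.61, SE 0.46) and 1700110I01Rik (-0.70, adjusted p 0.542), by the authors' deposited table. Gm10408 and Gm2897 were thus the called genes of largest adjusted p among the 10, and 4930555G01Rik (adjusted p 0.0449) and Gm10406 lie on either side of the threshold among those left out.

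Relatives were sought by sequence over all annotated transcripts, a search set up after the data were seen and starting from genes chosen for their values. In GENCODE M21, 150 other genes matched at least 50% of the transcript of 1 of the 10, all of them on chromosome 14, 89 in the first 10 Mb and 92 at 90% identity or more. Of the 150, 16 had a row in the deposited table, in which every mean count was above 10. The 13 with at least 90% identity were all below 0 in the authors' deposited table, with a median log2 fold change of -1.11, and 8 of the 13 were called lower against 3.42% of all rows. All of the 13 except Gm5458 were already counted among the 14 predicted or RIKEN neighbours, so both counts describe largely the same rows. With the shared values of Gm3317 and Gm3488 taken once, the 13 hold 12 distinct rows. Gm5458, a copy at 19594138 to 19602587 and so outside the 10 Mb, had a mean count of 69.5 and a log2 value of -1.09 (SE 0.26, adjusted p 0.00280) by the authors' deposited table. Gm3020, which matched the whole Gm10409 transcript at 100% identity, had -0.97 with an SE 2.48 times that of rows of like mean count. The 3 more distant relatives, at 68.7% to 78.2% identity, were not called: Gm5622 at -0.087 (SE 0.38), Gm17026 at -0.20 (SE 0.36) and 4930503E14Rik at -0.92 (SE 0.51) in the authors' deposited table. Their mean counts of 17.9 to 55.3 go with wide intervals. These run from -0.83 to 0.66 for Gm5622, from -0.90 to 0.51 for Gm17026 and from -1.92 to 0.085 for 4930503E14Rik. The difference between the close and the distant relatives was not tested, and close relatives can receive reads of the 10 genes. Dlg5, which lies further along the chromosome at 24133953 to 24245920, was not called (-0.43, SE 0.26, adjusted p 0.370) by the authors' deposited table.

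Predicted and RIKEN genes of the whole genome were examined as a setting for genes of this kind. Outside the 10 and their relatives, 1116 such rows had a median log2 fold change of -0.12, 62.3% were below 0 and 4.75% were called lower, against 49.9% and 3.42% of all rows. The 1116 include 2 rows of the first 10 Mb of chromosome 14, 1700110I01Rik and 4933406F09Rik. Rows whose fold change and SE both lay within the ranges of the 10 genes were also counted outside the window and the relatives, over this single comparison. There were 164, of which 144 were called. That share follows largely from the ranges, which fix a large fold change for its SE, so nothing is read from it. The 3 of smallest adjusted p were 4930467E23Rik on chromosome 8 (-1.27, SE 0.21), the ubiquitin ligase family gene Trim17 (-1.33, SE 0.23) and Iqcf3 (-1.57, SE 0.28) in the authors' deposited table. Rows of like fold change and SE thus also lie outside this region and family.

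The regions around the annotated starts fall into groups. RefSeq start regions of 300 bases (250 before to 50 after the start, GRCm38.p6) were matched for 8 of the 10 genes. The start that RefSeq's table uses is the outer end of the gene in 5 of them, but lies 885 bases inside 2610042L04Rik, 606 inside Gm3264 and 644 inside Gm3500, so their regions are not at the gene starts given above. Gm5795, Gm10413 and Gm10408 have start regions that align over 246 to 276 bases at 94.2% to 100% identity, with a GC content of 47.3% to 48.3% and 1 or 2 CpG sites. Gm2897, 2610042L04Rik, Gm3264 and Gm3500 form a second group that aligns over 199 to 273 bases at 83.0% to 93.5%, with 68.0% to 73.0% GC and 19 to 31 CpG sites. Across these groups and Gm5796, no local alignment was longer than 114 bases, which was that of Gm5796 with Gm10408 of the first group (78.9% identity). A pair from each group is printed 5′ to 3′ on the strand of the gene to show how the start regions differ. Capitals mark matches on either strand to the letters GGGCGG or to the E-box CACGTG, and the first pair has none.
Gm5795: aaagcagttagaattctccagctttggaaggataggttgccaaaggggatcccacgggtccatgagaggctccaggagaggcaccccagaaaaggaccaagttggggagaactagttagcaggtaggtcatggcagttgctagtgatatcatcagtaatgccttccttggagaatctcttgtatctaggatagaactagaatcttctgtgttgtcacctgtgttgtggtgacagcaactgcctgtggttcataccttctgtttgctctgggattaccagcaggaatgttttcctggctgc
Gm10408: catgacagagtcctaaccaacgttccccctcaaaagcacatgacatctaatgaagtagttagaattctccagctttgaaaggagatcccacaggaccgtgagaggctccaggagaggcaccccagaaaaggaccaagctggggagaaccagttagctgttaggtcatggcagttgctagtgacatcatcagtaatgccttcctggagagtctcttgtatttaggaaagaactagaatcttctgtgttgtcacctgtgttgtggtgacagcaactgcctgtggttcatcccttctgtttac
2610042L04Rik: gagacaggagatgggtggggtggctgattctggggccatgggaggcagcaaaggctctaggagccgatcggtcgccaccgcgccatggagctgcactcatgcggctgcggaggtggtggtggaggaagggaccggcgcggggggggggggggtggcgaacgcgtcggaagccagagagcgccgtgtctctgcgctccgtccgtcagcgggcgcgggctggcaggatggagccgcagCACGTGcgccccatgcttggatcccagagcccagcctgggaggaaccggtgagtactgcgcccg
Gm3264: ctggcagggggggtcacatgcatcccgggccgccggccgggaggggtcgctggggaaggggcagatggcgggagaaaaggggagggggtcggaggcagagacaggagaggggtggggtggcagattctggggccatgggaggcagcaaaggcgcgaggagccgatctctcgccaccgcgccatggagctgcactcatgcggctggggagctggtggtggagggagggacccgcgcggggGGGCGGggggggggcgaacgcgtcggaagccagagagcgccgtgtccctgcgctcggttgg
They lie at chr14:3188034-3188333, chr14:3449062-3449361, chr14:4334513-4334812 and chr14:4855273-4855572, all on the plus strand. In the authors' deposited table the first group had log2 fold changes of -1.43 to -1.27 and the second of -1.54 to -1.11. Gm5796, which was placed in neither group, stood at -1.69. Its start region has 46.3% GC and 2 CpG sites, near the values of the first group. All 10 genes were chosen for low fold changes, so nothing about the start regions is read from these values. Of 5 motifs searched on both strands, the TATA box letters TATAAA were in none of the 8 start regions, against 13.6% of the 32851 in the RefSeq table. The letters CCAAT (37.4% of all) were absent from the 8 as well, as was the cyclic AMP response element TGACGTCA (1.79% of all). GGGCGG was found in Gm2897, Gm3264 and Gm3500 (35.7% of all) and CACGTG in 2610042L04Rik (7.15% of all). No search motif was common to the 8.

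Markers were read from the same table, since the amount of a transcript in sorted cells also moves with the mix of cells. Fewer cells of a type and less RNA per cell cannot be told apart in these samples. As background for the marker counts, 49.9% of all rows were below 0, 3.42% were called lower and 1.94% higher. All 20 markers of undifferentiated spermatogonia had a row, with Zbtb16 at a mean count of 5143 and Mcam at 4854, and none was called (median log2 fold change -0.042, range -0.41 to 0.73). Spermatid markers lay on the same side as the 10 genes: 25 of 25 were below 0, 8 were called lower, and the median was -1.01 with a range of -1.47 to -0.15. Their mean counts summed to 12235, and the called members of smallest adjusted p were Odf1 (-1.14, SE 0.22), Spem1 (-1.47, SE 0.33), Tssk1 (-1.37, SE 0.33) and Dnajb3 (-0.75, SE 0.21), which overlaps Ugt1a genes, in the authors' deposited table. Of 12 spermatocyte markers, 7 were below 0 and 2, Piwil1 (-0.73) and Sycp2 (-0.53), were called lower in the authors' deposited table, with a median of -0.11. None of the 7 markers of differentiating spermatogonia was called (median -0.12). Markers of other testis cells were few: 6 of 9 Sertoli, 1 of 6 Leydig, 3 of 5 myoid, 5 of 5 endothelial, 1 of 6 leukocyte and 5 of 5 erythroid markers had a row. Of these, Trf of Sertoli cells was called higher (0.62, SE 0.15) and Actg2 of smooth muscle lower (-1.17, SE 0.37) in the authors' deposited table. Trf had a mean count of 316, against 33.6 for Clu, the next most abundant Sertoli marker. Of the 6 Sertoli markers, 3 were below 0 (median 0.16), as were all 3 myoid markers (median -1.05). Of the 5 endothelial markers, 2 were below 0 (median 0.0048), and of the 5 erythroid markers 1 was (median 0.93, SEs up to 1.32). The single Leydig and leukocyte markers were below 0. The part of spermatid RNA in the fall of the 10 genes was not tested.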

How the data were processed

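RNA of 8 samples, 4 CreER/flox and 4 CreER/+, was sequenced as stranded total RNA, per the labels' protocols. Per the submitters' processing notes, DESeq2, Bowtie2 2.0.0-6, Bowtie, TopHat2 2.0.4 and Trim Galore were used, on builds mm10 and GRCm38. How reads were counted per gene, by strand and when they match several places is not stated in these sources. Per the file header, the deposited values are a mean normalized count signal over all libraries, the log2 fold change and its SE, the Wald score, the p-value and the adjusted p-value. The deposited score equalled fold change over SE to within 2.58e-07, and a Benjamini-Hochberg adjustment over all rows gave the deposited adjusted p-values to within 0.426%. The depth of each library is not known here, so precision is given by the SEs.

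No model was fitted. Rows were matched to RefSeq genes (GRCm38.p6) by Entrez ID, 14828 of 14853; a call is an adjusted p under 0.05. Intervals of 95% are the fold change and its SE under a normal distribution. Relatives were found with blastn 2.17.0 (E under 1e-10) on the longest GENCODE M21 transcript of each gene. Start regions were aligned locally with Biopython 1.88. Other steps used Python 3.11.15, matplotlib 3.10.9, scipy 1.17.1, numpy 2.4.6 and pandas 2.3.3. The calling steps were tested on simulated independent rows with normal errors of the deposited SEs. The central statistics of the real rows were 1.45 times as wide as a standard normal, so the simulation does not check the calls reported here. The genes, lists, motifs and tests were chosen with earlier results of these data known. Named genes are the 10, Tert, Dlg5, called neighbours, up to 10 relatives, the 3 most alike rows elsewhere and the 4 called genes of smallest adjusted p per marker list, an order set later; uncalled neighbours, other relatives and Rpp14 with Htd2 were named after their values were seen. 1 gene that the rule names is not reported here. The search for relatives by protein was replaced by transcripts after the data were seen.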

Additional observations from a re-analysis of the deposited data

How the results depend on the processing

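No paired analysis was possible because the deposited table holds group comparisons and no values per library, and for the same reason no replicate could be left out. Relatives by protein were not run. All 10 genes were called lower with an adjusted p under 0.10, with a log2 fold change of at least 1, with centred fold changes and with identical rows counted once, and 7 of 10 with an adjusted p under 0.01. The first of these and the log2 limit follow from the deposited values, and the settings other than centring leave the fold changes as they are, so none of this tests the directions. Centring called 793 rows in all, and counting identical rows once called 790. The 10 genes were chosen for their small adjusted p-values, so nothing is read from their counts at these settings. Adjustment over rows with a mean count of at least 100 tested only 5 of the 10, and all 5 were called. At that setting 609 rows were called in all, 332 of them lower. It called 4 of the other genes in the first 10 Mb and 4 of the relatives lower. An adjusted p under 0.01 left 264 rows, with 4 other genes of the first 10 Mb and 5 relatives called lower, and one under 0.10 gave 1340 rows. A log2 fold change of at least 1 left 319 rows, and the share of higher among called rows went from 36.2% to 21.3%. With the width of the central statistics divided out, 3 of the 10 genes and 5 rows in all remained called, with 0 other genes of the first 10 Mb and 0 relatives called lower. The t distribution with 6 degrees of freedom left 0 of the 10 genes, 0 rows, 0 other genes of the first 10 Mb and 0 relatives called lower, the smallest adjusted p being 0.434. A window of 20 Mb added Gm5458 and Nek10 to the neighbours called lower, 10 of 43. The settings for relatives were added after the data were seen.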
